A study of Mus musculus with 22 samples.

Results

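The genes that turn ceramide into sphingosine, phosphorylate it to sphingosine-1-phosphate (S1P), break S1P down, export it and receive it were followed through 4 populations of VE-cadherin+ cells of the mouse embryo. They are 9 of the 24454 gene symbols of the count table: the ceramidases Acer2, Asah1 and Asah2, the sphingosine kinases Sphk1 and Sphk2, the lyase Sgpl1, the exporter Spns2 and the receptors S1pr1 and S1pr2. The 9 were chosen by name with earlier results of these data known, so the number of them called is a description and no independent result. All 9 have a row in the table. The 8 other lists, with 65 genes of the same metabolism and signalling, were read beside them.

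The cells came from the aorta-gonad-mesonephros region (AGM), where blood stem cells first arise from endothelium, of wild-type C57BL/6 embryos, and no treatment is labelled. Sorting by CD44 and Kit on the surface gave CD44Neg cells (labelled as endothelial, 10 libraries, 4 from E9.5 and 3 each from E10 and E11), CD44LowKitNeg cells (labelled as hemogenic endothelial, 6 libraries, of which 1, 2 and 3 at these stages), CD44LowKitPos cells (labelled as pre-HSPC, where HSPC stands for haematopoietic stem and progenitor cell; 3 libraries, 1 at E9.5 and 2 at E10) and CD44High cells (labelled as HSPC, 3 libraries, all at E11). Each of the 22 libraries held the RNA of 25 cells, so fewer cells expressing a gene and less RNA per cell cannot be told apart. The labels do not say whether libraries came from separate embryos, and p-values measure only the spread between these samples. The label date changes with the stage, so date and stage cannot be told apart, and no stage holds both CD44LowKitPos and CD44High libraries. The titles of all CD44LowKitPos and CD44High libraries carry the prefix KG-, and no CD44Neg or CD44LowKitNeg title does. Its meaning is not given. In comparisons across these groups, what it stands for cannot be told apart from the population.

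Libraries held 3912350 to 8657546 counts. Values below are TMM-scaled CPM, the counts of a gene over the scaled library total (normalized CPM, n libraries, SD between libraries), and a gene was called at an adjusted p under 0.01 by the quasi-likelihood test of edgeR (Benjamini-Hochberg, over all genes tested). A count of 0 allows up to 3 counts, or 0.348 to 0.816 CPM depending on the library, which covers counting error only. The populations were checked against their sort markers. Cdh5, which encodes VE-cadherin, measured 343.5 ± 143 CPM in CD44Neg, 955.5 ± 253 in CD44LowKitNeg and 168 ± 81.5 in CD44LowKitPos, and was at 0 in all 3 CD44High libraries. The CD44High libraries also carried 7 of 7 macrophage markers, whose summed level was 1584 CPM in replicate 20, 4329 in replicate 21 and 3626 in replicate 22, against 0 to 12.5 in CD44Neg, 0 to 53.0 in CD44LowKitNeg and 8.07 to 17.6 in CD44LowKitPos. C1qa, C1qb, C1qc and Adgre1 were at 0 in every library of these other populations. Mesenchyme markers summed to 196, 109 and 0.272 CPM in the 3 CD44High libraries in the same order. The part of these cells in the CD44High values below was not tested.

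Ceramide is the backbone of the sphingolipids. Ceramidases release sphingosine from it, each in its own compartment, and sphingosine kinases make S1P, which is either cleaved for good by the lyase, dephosphorylated back to sphingosine, or carried out of the cell. Outside the cell S1P acts on G protein-coupled receptors, and in the vasculature it is best known for keeping endothelial junctions tight and for guiding the exit of blood cells from tissues.

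RefSeq promoter windows (GRCm38.p6) were found for 7 of the 9 genes, all but Asah1 and S1pr1. The stretches upstream of Acer2 and Asah2, the pair of ceramidases with the widest range between populations, and of Sgpl1, the gene of S1P cleavage, are shown 5′ to 3′ without annotated exons. Capitals mark matches on either strand to the letters searched, which were TGTGGT for RUNX factors, TGGGAA for RBPJ, CACGTG for the E-box, AGATAA for GATA factors, CCGGAA for ETS factors and GGGTGG for KLF factors.
Acer2, chr4:86874164-86874347, plus strand: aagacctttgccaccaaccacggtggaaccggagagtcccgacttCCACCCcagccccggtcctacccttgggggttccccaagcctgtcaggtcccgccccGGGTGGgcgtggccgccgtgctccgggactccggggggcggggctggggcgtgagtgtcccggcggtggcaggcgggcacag
Asah2, chr19:32103141-32103390, minus strand: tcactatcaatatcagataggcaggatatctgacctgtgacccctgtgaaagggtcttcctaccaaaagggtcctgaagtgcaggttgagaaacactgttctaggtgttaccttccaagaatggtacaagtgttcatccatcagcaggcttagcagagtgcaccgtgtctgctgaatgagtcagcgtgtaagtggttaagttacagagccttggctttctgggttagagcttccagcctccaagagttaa
Sgpl1, chr10:61147704-61147934, minus strand: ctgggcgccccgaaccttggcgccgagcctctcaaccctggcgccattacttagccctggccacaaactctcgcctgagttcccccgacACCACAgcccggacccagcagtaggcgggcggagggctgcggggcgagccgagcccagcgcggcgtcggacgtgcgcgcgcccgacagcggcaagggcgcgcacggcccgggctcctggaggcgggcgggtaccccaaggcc
The 250 bases before the Acer2 start held 2 KLF matches, letters found in 28.1% of 32851 windows of that length. The Asah2 window held none of the 6 motifs, and GENCODE places it inside the Asah2 gene, downstream of a further annotated start. The Sgpl1 window held 1 RUNX match, found in 14% of windows, and an ETS match, found in 12%, that lies in the annotated gene and is not printed. A match is a description of letters only.

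All 3 ceramidases among the members were higher in CD44LowKitNeg than in CD44Neg cells. Of the ceramidases among the other listed genes, Acer3 was not called there (log2 fold change 0.64, SE 0.34, adjusted p = 0.203 by edgeR). Acer1 was at 0 in every library. Acer2 (alkaline ceramidase of the Golgi, chr4:86874396-86934822, plus strand) measured 9.87 CPM at the lowest, 37.5 at the median and 65.5 at the highest in the 10 CD44Neg libraries. In the 6 CD44LowKitNeg libraries it spanned 137 to 306 CPM with a median of 186. The groups did not overlap: the lowest CD44LowKitNeg library lay above every CD44Neg library. Acer2 rose by 2.32 on the log2 scale (SE 0.32, adjusted p = 5.2e-05 by edgeR), with 6 of 6 libraries above the CD44Neg median. Asah2 (neutral ceramidase, active at the cell surface, chr19:31982597-32108211, minus strand) measured 1.71 to 13.2 CPM in CD44Neg with a median of 6.09 and 16.3 to 47.4 CPM in CD44LowKitNeg with a median of 29.0. Again the groups did not overlap, and Asah2 rose by 2.10 on the log2 scale (SE 0.45, adjusted p = 0.00239).

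Asah1 (acid ceramidase of the lysosome, chr8:41340197-41374773, minus strand) was present in every library. It measured 72.2 to 173 CPM in CD44Neg with a median of 124, and 136 to 288 CPM in CD44LowKitNeg with a median of 257. The ranges overlapped through CD44LowKitNeg replicate 15 at E10, which at 136 CPM lay below the 3 CD44Neg libraries of E11. Asah1 rose by 0.997 on the log2 scale (SE 0.21, adjusted p = 0.00234), and 6 of 6 libraries lay above the CD44Neg median.

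These were the 3 members that passed the test between CD44LowKitNeg and CD44Neg, all higher, of the 8 that could be tested. Over all genes tested there, 4.94% were called higher and 5.23% lower. Sphk1 was removed from these tests by the filter on low counts. None of the remaining members was called: Sphk2 had a log2 fold change of 0.41 (SE 0.47), Sgpl1 of 0.65 (SE 0.40), Spns2 of -0.79 (SE 0.31), S1pr1 of 0.21 (SE 0.20) and S1pr2 of -0.62 (SE 0.81). Their adjusted p ranged from 0.0815 for Spns2 to 0.656 for S1pr2.

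**Figure D1:**
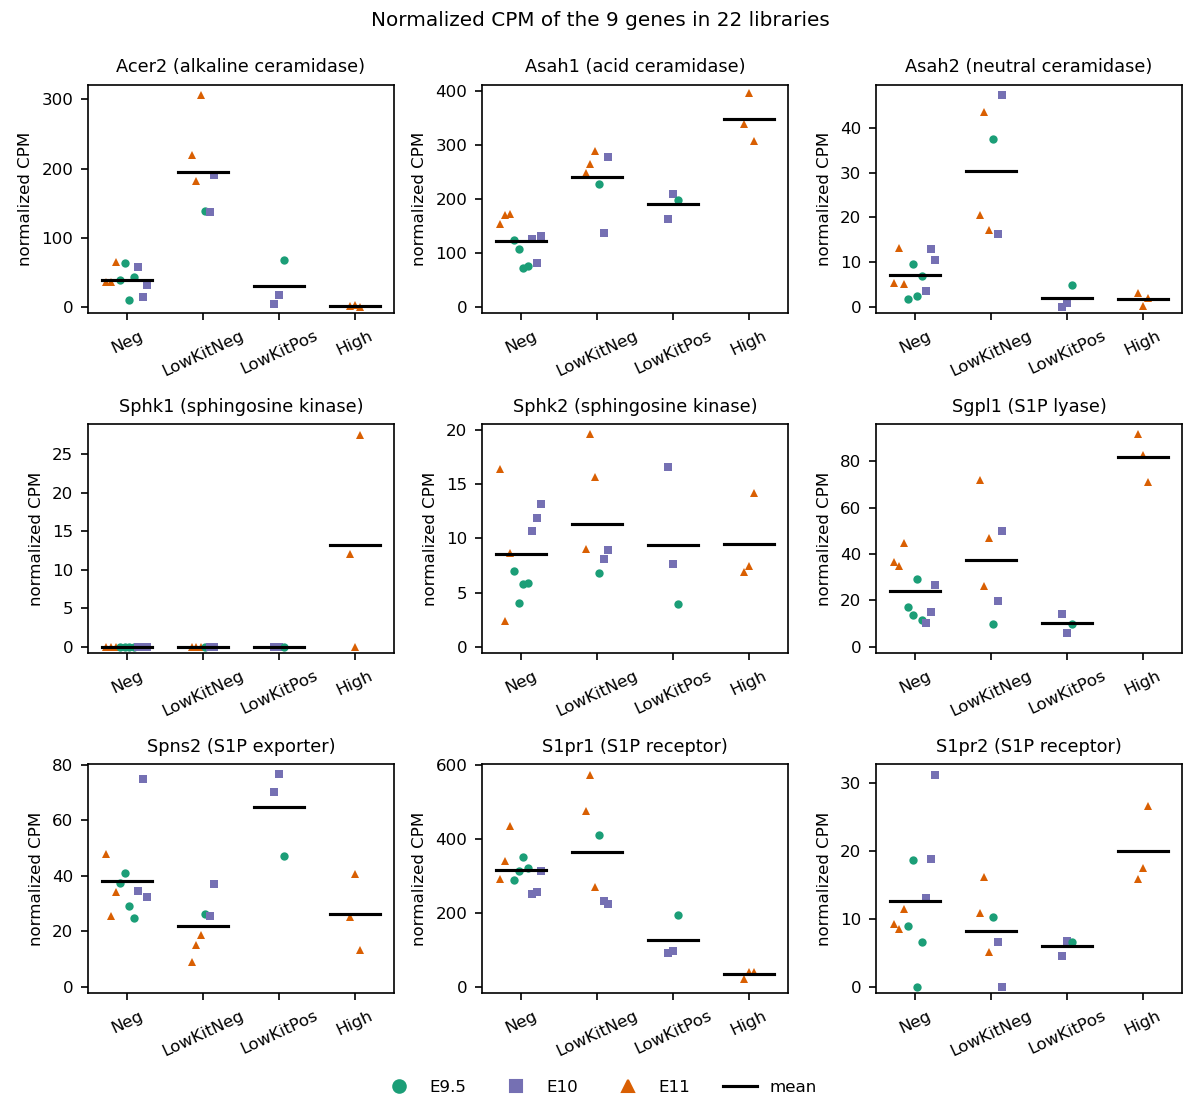
Normalized CPM (vertical axis, linear) of each of the 9 genes in the 22 libraries, by population (horizontal axis), with symbols for the stage and a bar for the mean. Acer2 and Asah2 stand highest in CD44LowKitNeg, Asah1 and Sgpl1 in CD44High, Spns2 in CD44LowKitPos, and Sphk1 is above 0 in 2 CD44High libraries only.

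The ceramidase difference was read within stages too. In the E11 libraries alone, 3 against 3 in a fit of 9 libraries, Acer2 differed by 2.42 on the log2 scale (SE 0.47, adjusted p = 0.0189 by edgeR), Asah1 by 0.75 (SE 0.20, adjusted p = 0.0618) and Asah2 by 1.83 (SE 0.86, adjusted p = 0.250). In the 13 libraries of E9.5 and E10 the values were 2.33 for Acer2 (SE 0.59, adjusted p = 0.0225), 1.09 for Asah1 (SE 0.25, adjusted p = 0.0133) and 2.37 for Asah2 (SE 0.85, adjusted p = 0.0864). The sizes were close to the pooled ones and none passed the threshold in these smaller sets, while with stage as a covariate over the 16 libraries all 3 were called (adjusted p from 1.3e-04 for Acer2 to 0.00325 for Asah2). Acer2 and Asah2 separated the populations within each of E9.5, E10 and E11, with a single CD44LowKitNeg library at E9.5. Asah2 lost its call, at an adjusted p of 0.0181, when all 22 libraries shared 1 fit, and leaving out any 1 of the 16 libraries lost none of the 3 calls.

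Stage itself gave no called member. In CD44Neg, Asah1 measured 94.9 ± 24.9 CPM at E9.5 (n = 4), 112 ± 28.0 at E10 (n = 3) and 165 ± 10.9 at E11 (n = 3). The E11 libraries lay above all E9.5 libraries, and the fitted difference was 0.82 on the log2 scale (SE 0.24, adjusted p = 0.0838 by edgeR). Sgpl1 in CD44Neg measured 17.9 ± 7.80 CPM at E9.5 and 38.8 ± 5.39 at E11 without overlap, a log2 difference of 1.13 (SE 0.45, adjusted p = 0.207). In that comparison 0 members were called and these 2 had an unadjusted p under 0.05 in edgeR. DESeq2's Wald test and limma voom called 0 as well. There 0.391% of all genes tested were called higher and 0.293% lower at E11, and 1925 of 11250 had an unadjusted p under 0.05. The 77 all-gene calls ranged from 8 to 98 with 1 library left out. They were 429 with DESeq2's Wald test and 172 with limma voom. Within CD44LowKitNeg, E11 against the earlier stages gave 0 called members in edgeR, DESeq2 and limma voom and 1 with an unadjusted p under 0.05, Acer2, at 236 ± 63.9 CPM in the 3 E11 libraries and 137 to 190.5 CPM in the 3 earlier ones (log2 fold change 0.64, SE 0.27, adjusted p = 0.269). All-gene calls there were 0.109% higher and 0.0636% lower, and 1851 of 11010 genes had an unadjusted p under 0.05. The 19 all-gene calls fell to between 0 and 2 with any 1 library left out. They were 558 with DESeq2's Wald test and 68 with limma voom. The interaction of population and stage over the E10 and E11 libraries gave 0 called members in edgeR and 0 with an unadjusted p under 0.05, against all-gene calls of 0% higher and 0.00806% lower.

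**Figure D2:**
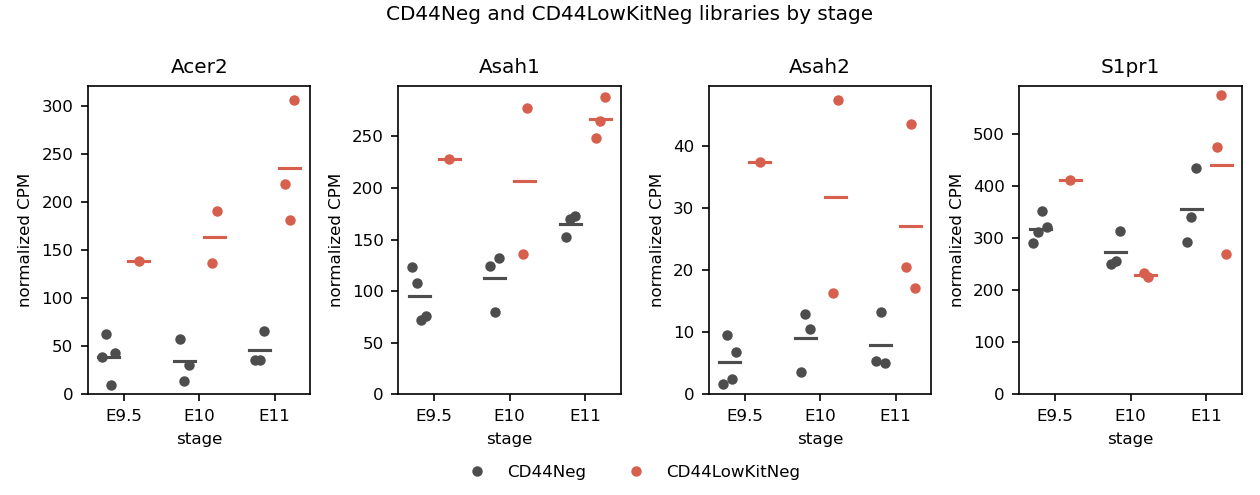
Normalized CPM (vertical axis, linear from 0) of the 3 ceramidases and S1pr1 at E9.5, E10 and E11, in CD44Neg (grey) and CD44LowKitNeg (red) libraries, each point a library and each bar a mean. Acer2 and Asah2 points of CD44LowKitNeg lie above all CD44Neg points at each stage, while those of S1pr1 mix at E11.

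In CD44LowKitPos cells no ceramidase differed from CD44LowKitNeg past the threshold, and Acer2 and Asah2 had a wide spread. Acer2 measured 4.34 CPM in replicate 17, 17.7 in replicate 18 and 67.1 in replicate 19. Replicates 17 and 18 are from E10 and replicate 19 is from E9.5. All 3 lay below the CD44LowKitNeg range, yet the log2 fold change of -2.72 (SE 0.68) had an adjusted p of 0.0111 and was not called. Asah2 was at 0, 0.934 and 4.82 CPM in the same libraries, also below all of CD44LowKitNeg, at -3.97 on the log2 scale (SE 1.05, adjusted p = 0.0150 by edgeR). Without replicate 19 both were called, Acer2 at -4.17 (adjusted p = 0.00111) and Asah2 at -5.95 (adjusted p = 0.00442). The Asah2 value then rests on 0 counts in replicate 17 and 7 in replicate 18, near the floor, so its size is uncertain. Acer2 was also called with DESeq2's size factors (adjusted p = 0.00930) and with no filter (adjusted p = 0.00973), without CD44Neg replicate 6 or 9, and both genes were called by DESeq2's Wald test and limma voom. The adjusted p of Acer2 lay between 7.3e-05 and 0.0697 under the alternatives tried, and that of Asah2 between 2.6e-05 and 0.0784. Within E9.5 and E10 alone the values were -2.71 for Acer2 (adjusted p = 0.0531) and -4.25 for Asah2 (adjusted p = 0.0537). Asah1 was at 162 to 208 CPM, within the CD44LowKitNeg range (log2 fold change -0.34, SE 0.28, adjusted p = 0.472). Against CD44Neg the 3 ceramidases had log2 fold changes of -0.41 for Acer2, 0.65 for Asah1 and -1.88 for Asah2 and were not called (adjusted p = 0.778, 0.124 and 0.240). Without replicate 19 they were -1.83 for Acer2 and -3.84 for Asah2 (adjusted p = 0.0381), again not called.

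In CD44High cells the ceramidases parted. Acer2 was near the floor of detection, with 4, 10 and 1 counts in replicates 20, 21 and 22, or 0.792, 2.66 and 0.272 CPM. It fell against all 3 other populations, with log2 fold changes of -4.58 against CD44LowKitPos (SE 0.87, adjusted p = 0.00136), -7.30 against CD44LowKitNeg (SE 0.92, adjusted p = 2.7e-06) and -4.99 against CD44Neg (SE 0.83, adjusted p = 8.3e-05). Without CD44High replicate 21 the values were -5.75, -8.48 and -6.13 in the same order. In the E11 libraries alone the last 2 were -7.68 (adjusted p = 2.3e-05) and -5.26 (adjusted p = 1.9e-04). Against CD44LowKitPos the call was lost without CD44LowKitPos replicate 19 (-3.17, adjusted p = 0.0167) and without CD44High replicate 20 or 22 (adjusted p = 0.0120 and 0.0143). limma voom did not call Acer2 against CD44LowKitPos (adjusted p = 0.154) or CD44Neg (adjusted p = 0.0180).

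Asah2 in CD44High measured 3.17, 0.266 and 1.90 CPM. It fell against CD44LowKitNeg by 4.06 on the log2 scale (SE 1.06, adjusted p = 0.00617), with every CD44High library below every CD44LowKitNeg library. The call was lost without CD44LowKitNeg replicate 12 or 16 or without any of the 3 CD44High libraries (adjusted p from 0.01095 to 0.0317), and in the E11 libraries alone the adjusted p of 0.01004 just missed the threshold (log2 fold change -3.99). Against CD44Neg and CD44LowKitPos it was not called (log2 fold changes -1.97, SE 0.92, and -0.09, SE 1.02). Without CD44High replicate 20 the values were -4.91 against CD44LowKitNeg, -2.78 against CD44Neg and -0.95 against CD44LowKitPos.

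Asah1 went the other way, at 339, 396 and 307 CPM in the CD44High libraries, above all libraries of the other populations. It rose against CD44Neg by 1.52 on the log2 scale (SE 0.24, adjusted p = 4.1e-05), and by 1.02 in the E11 libraries alone (SE 0.20, adjusted p = 0.00638). The differences from CD44LowKitNeg (0.53, SE 0.27, adjusted p = 0.158) and CD44LowKitPos (0.87, SE 0.32, adjusted p = 0.124) were not called. The macrophage markers named above were high in the same 3 libraries, with sums of 1584, 4329 and 3626 CPM in the same order. Their part in the Asah1 values was not tested.

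The sphingosine kinases differed in where they were detected. Sphk1 (chr11:116530925-116536674, plus strand) was at 0 in all 10 CD44Neg, 6 CD44LowKitNeg and 3 CD44LowKitPos libraries. In CD44High it had 61 counts (12.1 CPM) in replicate 20, 0 in replicate 21 and 101 counts (27.5 CPM) in replicate 22. Its mean there was 13.2 ± 13.8 CPM (n = 3), so the spread between the 3 libraries was as wide as the mean. No fold or p-value is given for it. The library at 0 was the one with the highest macrophage marker sum, and the part of these cells in the Sphk1 values was not tested. An antisense gene, Gm29292, shares 192 exon bases with Sphk1, and since the library kit does not mark strand, reads of the 2 cannot be told apart there.

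Sphk2 (chr7:45709467-45718002, minus strand) was detected in all 22 libraries at 2.33 to 19.7 CPM. Its means were 8.58 ± 4.41 CPM in CD44Neg, 11.4 ± 5.10 in CD44LowKitNeg, 9.37 ± 6.52 in CD44LowKitPos and 9.51 ± 4.02 in CD44High. All 4 ranges overlapped. No population comparison called it, with log2 fold changes from -0.28 to 0.41 and standard errors from 0.47 to 0.74. Sphk2 shares 539 exon bases with Dbp and 373 with Rpl18 on the opposite strand. Rpl18 was at 375 to 696 CPM in the population means, far above Sphk2, and unstranded reads of the shared bases cannot be told apart.

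Sgpl1 (chr10:61098642-61147703, minus strand), the lyase that cleaves S1P irreversibly, was highest in CD44High at 91.7, 82.8 and 71.3 CPM. CD44LowKitPos had the lowest mean, with 14.1, 6.00 and 9.95 CPM. CD44Neg spanned 10.2 to 44.9 CPM with a median of 21.9, and CD44LowKitNeg 9.74 to 71.9 CPM with a median of 36.5. The CD44High libraries lay above all others except CD44LowKitNeg replicate 11, whose 71.9 CPM exceeded the lowest of them. Sgpl1 rose in CD44High against CD44LowKitPos by 3.03 on the log2 scale (SE 0.66, adjusted p = 0.00439) and against CD44Neg by 1.77 (SE 0.45, adjusted p = 0.00495). Against CD44LowKitNeg the difference of 1.13 was not called (SE 0.51, adjusted p = 0.104).

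Both Sgpl1 calls were close to the threshold. Within E11 the CD44High difference from CD44Neg was 1.02 (SE 0.39, adjusted p = 0.0960 by edgeR) and was not called. The E11 libraries held the 3 highest CD44Neg values, 34.8 to 44.9 CPM. With stage as a covariate it was 1.11 (adjusted p = 0.0874), and the difference from CD44LowKitPos was 2.03 (adjusted p = 0.0590). The call against CD44Neg was lost without CD44Neg replicate 5 or any CD44High library (adjusted p from 0.0111 to 0.0413), and that against CD44LowKitPos without any 1 of the 6 libraries compared (adjusted p from 0.0106 to 0.0368) and in limma voom (adjusted p = 0.0120). From CD44LowKitNeg to CD44LowKitPos the Sgpl1 difference was -1.90 on the log2 scale (SE 0.58, adjusted p = 0.0324), which was not called by edgeR and was called by DESeq2's Wald test (-2.06, adjusted p = 0.00321).

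Spns2 (chr11:72451638-72489904, minus strand), which carries S1P out of endothelial cells, was not called in any comparison. It measured 70.1, 76.7 and 46.9 CPM in CD44LowKitPos, above all 6 CD44LowKitNeg libraries (9.01 to 37.1 CPM, median 22.0). That log2 fold change was 1.56 (SE 0.40, adjusted p = 0.0131) and passed the threshold in DESeq2's Wald test (adjusted p = 0.00728), in limma voom (adjusted p = 0.00175) and without CD44LowKitNeg replicate 16 (adjusted p = 0.00904). CD44Neg spanned 24.8 to 74.7 CPM and CD44High 13.3 to 40.5 CPM. Spns2 shares 131 exon bases with Mybbp1a on the opposite strand. Mybbp1a measured 61.4 ± 25.5 CPM in CD44LowKitNeg, where Spns2 was lowest as well, and 126 to 135 CPM in the other population means, and its part in the Spns2 values was not tested.

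S1pr1 (chr3:115710433-115715072, minus strand), the main S1P receptor of endothelium, stepped down from the endothelial populations to CD44High. The 10 CD44Neg libraries spanned 250.3 to 435 CPM with a median of 313, and the 6 CD44LowKitNeg libraries 225 to 575 CPM with a median of 340.4. These ranges overlapped. CD44LowKitPos libraries held 92.3, 95.8 and 194 CPM and CD44High libraries 21.6, 39.4 and 39.2 CPM. The last 2 populations did not overlap each other or the endothelial ones, and replicate 19 of E9.5 was again the CD44LowKitPos library nearest to them.

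S1pr1 was the 1 member called in every comparison of CD44LowKitPos or CD44High. It fell from CD44LowKitNeg to CD44LowKitPos by 1.52 on the log2 scale (SE 0.32, adjusted p = 0.00430) and from CD44LowKitPos to CD44High by 1.93 (SE 0.36, adjusted p = 0.00102). CD44LowKitPos lay below CD44Neg, at -1.31 on the log2 scale (SE 0.30, adjusted p = 0.00752). CD44High lay below CD44LowKitNeg with -3.45 (SE 0.36, adjusted p = 2.1e-07) and below CD44Neg with -3.25 (SE 0.35, adjusted p = 2.5e-07).

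Within E11 the CD44High values were -3.84 against CD44LowKitNeg (adjusted p = 5.0e-05) and -3.48 against CD44Neg (adjusted p = 9.5e-05). Within E9.5 and E10 the CD44LowKitPos values were -1.23 against CD44LowKitNeg (adjusted p = 0.00893) and -1.16 against CD44Neg (adjusted p = 0.00233). All 4 were called by edgeR. The call between CD44LowKitPos and CD44LowKitNeg was lost without CD44LowKitPos replicate 17 (adjusted p = 0.0466) or 18 (adjusted p = 0.0297), and that between CD44High and CD44LowKitPos without CD44LowKitPos replicate 19 (adjusted p = 0.0119) and in limma voom (adjusted p = 0.0274). The call between CD44LowKitPos and CD44Neg held in 11 of 22 fits with 1 library left out, and was lost without CD44Neg replicate 1, 2, 3, 5, 6, 7 or 10, CD44LowKitPos replicate 17 or 18, or CD44High replicate 21 or 22 (adjusted p from 0.01004 to 0.0833). S1pr1 moved with the endothelial markers. Their 6 genes summed to 2115 to 3951 CPM in CD44Neg, 2668 to 6463 in CD44LowKitNeg, 460.1 to 1266 in CD44LowKitPos and 11.9 to 60.5 in CD44High.

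S1pr2 (chr9:20962361-20976781, minus strand), the receptor often set against S1pr1 in cell migration, was low everywhere. It was at 0 in CD44Neg replicate 6 and CD44LowKitNeg replicate 16 and reached 31.2 CPM in CD44Neg and 16.2 CPM in CD44LowKitNeg. CD44LowKitPos held 4.50 to 6.67 CPM and CD44High 15.8 to 26.7 CPM, without overlap between the last pair. No comparison called it. The log2 fold change from CD44LowKitPos to CD44High was 1.75 (SE 1.18, adjusted p = 0.49).

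The member counts stand against all genes as follows. From CD44LowKitNeg to CD44LowKitPos 0 of 8 tested members were called higher and 1 lower (S1pr1), where 2.55% of all genes were called higher and 1.71% lower. There the TMM fit called 330 genes higher and 222 lower with an all-gene median of -0.02, and size factors from DESeq2 gave 218 and 273 with a median of -0.16. On that scaling S1pr1 had a log2 fold change of -1.66. The all-gene calls of this comparison also moved with single libraries, to 48 higher and 17 lower without CD44LowKitPos replicate 17, 123 and 37 without replicate 18 and 228 and 430 without replicate 19, and to 312 to 342 in all without CD44LowKitNeg replicate 11, 12 or 13. Between CD44LowKitPos and CD44Neg 1 member was lower, with 2.08% of all genes higher and 1.41% lower. Those 269 and 182 calls became 152 and 30 without CD44LowKitPos replicate 17, 134 and 25 without replicate 18, and 269 and 361 without replicate 19. Between CD44High and CD44LowKitPos 1 was higher (Sgpl1) and 2 lower (Acer2, S1pr1), with 0.780% and 2.23%, or 101 and 289 genes, a balance that limma voom turned to 361 higher and 124 lower, while DESeq2's Wald test gave 218 and 498. Against CD44LowKitNeg, 3 were lower in CD44High (Acer2, Asah2, S1pr1), with 7.79% of all genes higher and 8.17% lower. Against CD44Neg, 2 were higher (Asah1, Sgpl1) and 2 lower (Acer2, S1pr1), with 7.14% and 7.25%. The balance of the all-gene calls differed between tools. Against CD44LowKitNeg edgeR called 1009 higher and 1058 lower, limma voom 1473 and 835, and DESeq2's Wald test 1001 and 1664. Against CD44Neg these were 925 and 939, 1123 and 678, and 859 and 1394. Between CD44LowKitPos and CD44Neg they were 269 and 182, 459 and 270, and 262 and 567, and between CD44LowKitPos and CD44LowKitNeg the Wald test gave 429 and 836 and limma voom 797 and 447. The last 5 comparisons come from 1 fit and share libraries, so their counts are not separate pieces of evidence.

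**Figure D3:**
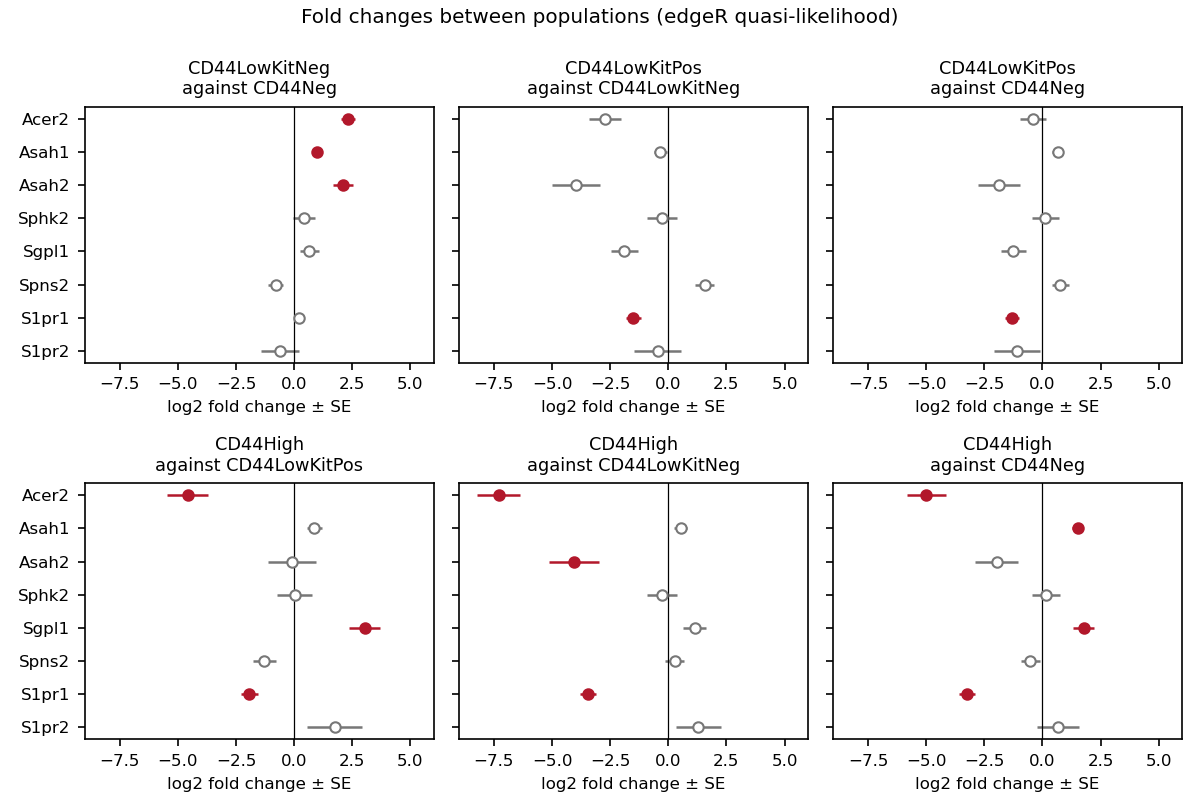
Log2 fold change ± SE (horizontal axis) of the 8 tested genes in the 6 comparisons of populations, with filled red points for genes called at an adjusted p under 0.01 and open grey points for the rest. S1pr1 lies left of 0 in the 5 comparisons that involve CD44LowKitPos or CD44High, and Acer2 moves from 2.32 in CD44LowKitNeg against CD44Neg to -7.30 in CD44High against CD44LowKitNeg.

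Levels of different genes were compared per kilobase of exon. In CD44Neg cells S1pr1 stood first at 104 CPM per kb, followed by Asah1 at 35.8, Spns2 at 9.32, Acer2 at 5.51 and Sgpl1 at 3.90. Sphk2 at 2.06, S1pr2 at 1.59 and Asah2 at 0.613 CPM per kb were the lowest of the genes detected there. In CD44LowKitNeg Acer2 moved to the third place with 27.4 CPM per kb, behind S1pr1 at 119.7 and Asah1 at 70.9. In CD44LowKitPos the order was Asah1 at 56.0, S1pr1 at 41.9 and Spns2 at 15.8 CPM per kb. In CD44High Asah1 led at 102 CPM per kb and Sgpl1 at 13.3 stood above S1pr1 at 10.96. The exon lengths were taken from GENCODE vM21, which may differ from the annotation used for counting. The differences between neighbouring genes in this order were not tested.

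For the tested members other than Sgpl1 the genes nearest in profile were found, as the root mean square difference of standardised log2 CPM over the 22 libraries among 12949 genes. The closest pairs belonged to S1pr1, with the endothelial surface gene Cd93 at 0.244 and the phosphatase receptor Ptprm at 0.246. Acer2 was nearest to Stmn2 (0.319) and the lymphatic growth factor Vegfc (0.347), which measured 203 ± 68.6 CPM in CD44LowKitNeg and 0 in all CD44High libraries. Asah2 was nearest to Foxo1 (0.459) and Sdpr (0.478). Asah1 was nearest to B2m (0.459), a subunit of class I histocompatibility molecules, and Nptn (0.464). Spns2 (Acot2, 0.545, and Gm10069, 0.652), S1pr2 (Stil, 0.531, and Ada, 0.594) and Sphk2 (Lenep, 0.763) had more distant ones. Among the members themselves the smallest difference was between Acer2 and S1pr1 (0.569), then between Acer2 and Asah2 (0.725). The libraries and their depth are shared by all these profiles.

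Of the 65 listed genes of the wider pathway 53 could be tested between CD44LowKitNeg and CD44Neg, and 2 rose with 0 lower, where 4.94% of all genes were called higher and 5.23% lower. The median log2 fold change of the list was 0.27, beside 0.01 over all genes tested. Sptssa, the small subunit of serine palmitoyltransferase that starts ceramide synthesis, rose from 200.2 ± 47.7 to 529 ± 125 CPM (log2 fold change 1.41, SE 0.18, adjusted p = 2.3e-05 by edgeR). Smpdl3a, an acid sphingomyelinase-like phosphodiesterase, rose from 19.6 ± 12.9 to 154 ± 52.3 CPM (2.97, SE 0.50, adjusted p = 3.5e-04). Neither gene overlapped between the populations. In the E11 libraries alone neither was called (adjusted p = 0.0952 and 0.0237), nor was Smpdl3a in those of E9.5 and E10 (adjusted p = 0.0118). The 4 tested ceramide synthases, 12 genes of glycosphingolipid turnover and 10 genes of S1P receptor coupling had 0 called. In all, 14 of the 53 listed genes had an unadjusted p under 0.05, beside 3588 of all 11022 genes tested.

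Between CD44LowKitPos and CD44LowKitNeg 1 of 56 listed genes was lower and 0 higher. It was St3gal5, which makes the ganglioside GM3, at 6.98 to 28.3 CPM against 43.6 to 124 CPM (log2 fold change -2.63, SE 0.52, adjusted p = 0.00284), a call lost without CD44LowKitPos replicate 17 or 18 (adjusted p = 0.0349 and 0.0213) and in the E9.5 and E10 libraries alone (-2.21, adjusted p = 0.0155). Without CD44LowKitPos replicate 19 it was -3.54 (adjusted p = 3.9e-04). Over all genes 2.55% were higher there and 1.71% lower. The list had a median of -0.30, beside -0.02 over all genes. Against CD44Neg 3 were higher and 2 lower in CD44LowKitPos, where 2.08% and 1.41% of all genes were. Mfsd2b, the S1P exporter of red cells and platelets, was at 10.9 to 18.8 CPM in CD44LowKitPos and at 0 to 0.447 CPM in CD44Neg (adjusted p = 2.1e-05). Abcc1, a transporter that also exports S1P, rose from 12.99 ± 7.92 to 59.7 ± 18.2 CPM (log2 fold change 2.20, adjusted p = 0.00512), and Sptssa was higher as well (1.36, adjusted p = 0.00143). Plpp3, a lipid phosphatase that takes the phosphate from S1P outside the cell, fell by 3.85 on the log2 scale (adjusted p = 0.00612), or by 7.71 without CD44LowKitPos replicate 19, and the G protein subunit Gnai2 by 1.38 (adjusted p = 0.00444). The calls of Plpp3 and Gnai2 were lost without CD44LowKitPos replicate 17 or 18, that of Plpp3 also without CD44Neg replicate 1, that of Sptssa without CD44LowKitPos replicate 18, and that of Abcc1 without CD44Neg replicate 5 or any CD44LowKitPos library (adjusted p from 0.0102 to 0.0679). In the E9.5 and E10 libraries alone Abcc1 (adjusted p = 0.0190) and Plpp3 (adjusted p = 0.0166) were not called, nor was Abcc1 with stage as a covariate (adjusted p = 0.0164).

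In CD44High cells 1 of 56 listed genes was higher than in CD44LowKitPos and 2 were lower, where 0.780% and 2.23% of all genes were. The 2 lower ones were Plpp3 and the G protein subunit Gna11 (-3.29, adjusted p = 2.4e-05). The call of Plpp3 was lost without CD44Neg replicate 9, CD44LowKitPos replicate 19 or any CD44High library (adjusted p from 0.0101 to 0.156), and in limma voom (-3.73, adjusted p = 0.352). Against CD44LowKitNeg 2 were higher and 7 lower, where 7.79% and 8.17% of all genes were, and against CD44Neg 7 were higher and 8 lower, where 7.14% and 7.25% were. The list medians were 0.24, -0.16 and 0.04, beside -0.02, 0.00 and -0.02 over all genes, and were the same with Plpp3 and Gnai1 set at their bounds. Plpp3 was at 0 in all 3 CD44High libraries, at least 129-fold lower than in CD44Neg (94.97 ± 27.6 CPM) and 64.1-fold lower than in CD44LowKitNeg, against the floor of 3 counts per library. In CD44LowKitPos it was at 0.267, 0.620 and 18.9 CPM, so that only 1 library stood above the CD44High floor and no bound is given. Gnai1 was also at 0 in all 3 CD44High libraries and at least 29.05-fold lower than in CD44Neg, a call lost without any 1 of the CD44High libraries (adjusted p from 0.0115 to 0.0137) and in the E11 libraries alone (adjusted p = 0.0193). Plpp1, of the same phosphatase family, fell from 102 ± 43.3 CPM in CD44Neg to 8.62 ± 8.77 CPM (log2 fold change -3.58, adjusted p = 4.7e-04, but 0.0122 in limma voom; -4.81 without CD44High replicate 21), so that of the 5 tested genes of S1P dephosphorylation and later breakdown 3 were lower and 0 higher, Plpp2 being the third (-1.89, adjusted p = 0.00111).

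On the higher side in CD44High against CD44Neg, Mfsd2b measured 69.9 ± 19.5 CPM, with every library above every CD44Neg library (adjusted p = 1.2e-07). Acer3, a further alkaline ceramidase, rose from 43.4 ± 21.03 to 173 ± 41.9 CPM (log2 fold change 2.00, SE 0.37, adjusted p = 2.8e-04), opposite in direction to Acer2. In the E11 libraries alone Acer3 differed by 1.95 and was not called (adjusted p = 0.0204). Ormdl1, an inhibitor of serine palmitoyltransferase, rose by 1.82 on the log2 scale (adjusted p = 0.00893) and Arrb2, an arrestin that takes up activated receptors, by 3.01 (adjusted p = 0.00128). The Ormdl1 call was lost in 15 of 22 fits with 1 library left out, among them all 3 without a CD44High library (adjusted p up to 0.0829), and that of Arrb2 without CD44High replicate 21 or 22 (adjusted p = 0.0270 and 0.0159). Both calls were also lost in the E11 libraries alone, where the log2 fold changes were 2.14 for Ormdl1 (adjusted p = 0.0243) and 3.89 for Arrb2 (adjusted p = 0.0281). The Ormdl1 call was lost in limma voom as well (adjusted p = 0.0240). Gna11 was lower (-3.83, adjusted p = 3.7e-07). Against CD44LowKitNeg the 4 largest falls were those of Plpp3, Gnai1, Plpp1 (-3.83, or -5.10 without CD44High replicate 21) and Gna11 (-3.31), and the 2 rises those of Mfsd2b (5.79) and Arrb2 (2.96). There the Gnai1 call was lost without any 1 of the CD44High libraries and that of Arrb2 without CD44LowKitNeg replicate 11, 12, 14 or 16 or CD44High replicate 21 or 22 (adjusted p from 0.0106 to 0.0515). In the E11 libraries alone neither Gnai1 (adjusted p = 0.0361) nor Arrb2 (adjusted p = 0.0329) was called, nor was Gnai1 with stage as a covariate (adjusted p = 0.0138) or in limma voom (adjusted p = 0.0382), or Arrb2 with no filter (adjusted p = 0.0115). In the same CD44High libraries the macrophage markers summed to 1584 to 4329 CPM, and their part in these values was not tested. S1pr3 was detected in all 3 CD44LowKitPos libraries (1.24 to 6.94 CPM), at 0 in CD44High and at 0 in 9 of 10 CD44Neg and 5 of 6 CD44LowKitNeg libraries, S1pr5 was at 0 in all but 1 CD44LowKitNeg library (3.13 CPM), and Acer1 was at 0 in every library. Between stages and in the interaction 0 listed genes were called, with 12, 12 and 8 having an unadjusted p under 0.05 in CD44Neg, CD44LowKitNeg and the interaction. The tested listed genes numbered 54, 54 and 56. Over all genes 1925 of 11250, 1851 of 11010 and 1321 of 12403 had such a p, in the same order.

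**Figure D4:**
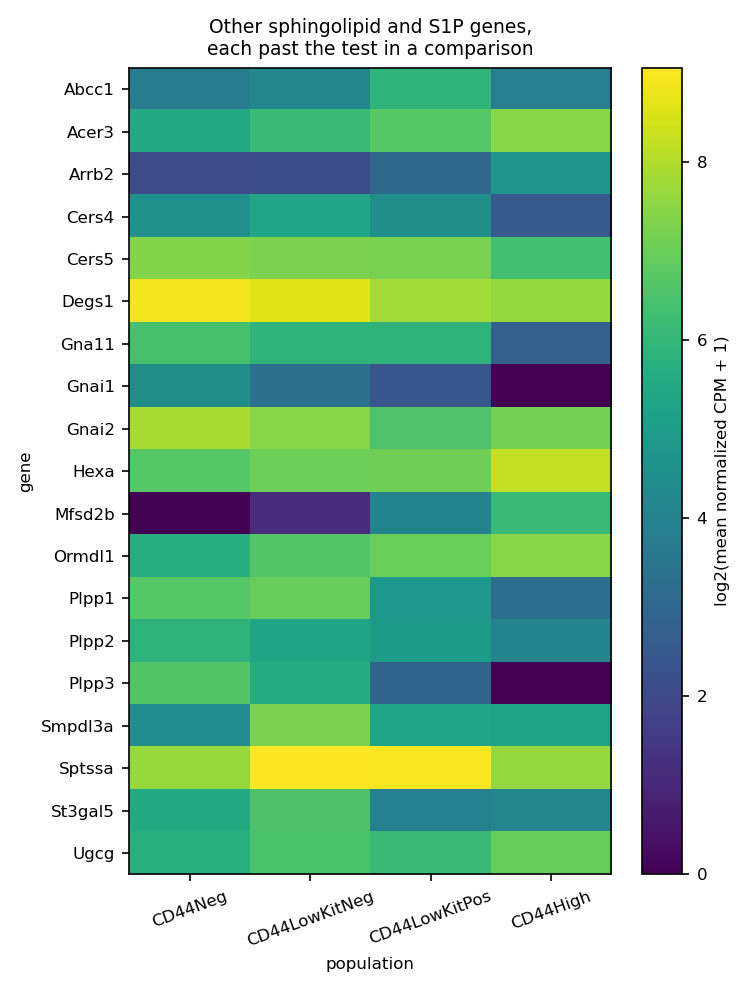
Mean level on a log2(normalized CPM + 1) scale (colour) of 19 listed genes that were called in a comparison (rows) in the 4 populations (columns). Plpp3 and Gnai1 run from the CD44Neg column to 0 in CD44High, and Mfsd2b runs the opposite way.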

How the data were processed

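RNA of 25 sorted cells per library was amplified with SMART-Seq2 (14 cycles) and made into Nextera libraries. On the Galaxy server of EMBL the authors clipped adaptors with FASTX, mapped with RNA STAR and counted with htseq-count. The deposited values are raw counts, and the processing notes name mm10, FastQC and HTSeq. The annotation and the strand setting are not given in the sources used here. The number of columns left without a library was 0.

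Genes were filtered with filterByExpr (minimum count 10, minimum total 15), scaled by TMM and tested with edgeR 4.0.16 (quasi-likelihood, prior count 0.125) in R 4.3.3, with Benjamini-Hochberg adjustment. CD44LowKitNeg was compared with CD44Neg over 16 libraries and the other populations in 1 fit of 22. Standard errors were derived from the F statistic. Alternatives were DESeq2 1.42.0 (size factors, Wald test), limma 3.58.1 voom, no filter, Rn45s left out, stage as a covariate, stages alone, all 22 libraries, a looser threshold and each library left out. The steps were tested on simulated data. Plots used matplotlib.

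All 9 members are named, but those not called are not given a value in every comparison. Of the listed genes the 4 largest called changes in each direction are named, and other named genes were chosen after their values were seen. The members and lists were chosen with earlier results of these data known. Some genes that these rules select are not reported here.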

Additional observations from a re-analysis of the deposited data

Results flagged for a closer look

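Spns2 in CD44Neg replicate 9 (E10) stood apart at 74.7 CPM. The next library was at 47.7 CPM and the lowest at 24.8 CPM, so the gap was 0.542 of the whole range, above the 95% critical value of Dixon's test for 10 samples. Chance gives such a gap in about 1 of 20 groups, and 16 groups of 6 or 10 libraries were tested, in CD44LowKitNeg and CD44Neg only.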

How the results depend on the processing

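Of the counts of members called, those between CD44LowKitNeg and CD44Neg went from 3 to 0 in the E11 libraries alone and to 0 in the E9.5 and E10 libraries alone, both smaller sets, where the calls over all genes went from 1121 of 11022 to 126 of 11942 and 375 of 11881. Between CD44LowKitPos and CD44LowKitNeg the count went from 1 to 2 with DESeq2 size factors and 2 with no filter, to 5 with the DESeq2 Wald test, 4 with limma voom and 5 at an adjusted p under 0.05 (over all genes from 552 of 12949 to 1265 of 11663 with the Wald test and 1244 of 12949 with limma voom), and between CD44High and CD44LowKitPos from 3 to 0 with limma voom. With 1 library left out these counts ranged from 0 to 3 between CD44LowKitPos and CD44LowKitNeg, from 0 to 1 between CD44LowKitPos and CD44Neg and from 0 to 3 between CD44High and CD44LowKitPos. The log2 fold changes that changed sign belonged to comparisons in which the gene was not called. For Sphk2 they became -0.15 (E9.5 and E10 alone, CD44LowKitNeg against CD44Neg), 0.041 (the same stages, CD44LowKitPos against CD44LowKitNeg), -0.0041 with stage as a covariate and -0.11 in E9.5 and E10 alone (CD44LowKitPos against CD44Neg), -0.21 with stage as a covariate (CD44High against CD44LowKitPos), and -0.21 with stage as a covariate and -0.0032 in E11 alone (CD44High against CD44Neg). S1pr2 became 0.19 in E11 alone (CD44LowKitNeg against CD44Neg) and 0.54 with limma voom (CD44LowKitPos against CD44LowKitNeg), and Asah2 0.94 with limma voom and 0.0131 with stage as a covariate (CD44High against CD44LowKitPos). With 1 library left out, the ranges that crossed 0 between populations were, for Sphk2, -1.0002 to 0.0547 (CD44LowKitPos against CD44LowKitNeg), -0.57 to 0.49 (CD44LowKitPos against CD44Neg), -0.42 to 0.70 (CD44High against CD44LowKitPos) and -0.29 to 0.28 (CD44High against CD44Neg), for Acer2 -1.83 to 0.10 (CD44LowKitPos against CD44Neg), for Asah2 -0.95 to 1.86 (CD44High against CD44LowKitPos) and for Spns2 -0.26 to 0.50 (CD44High against CD44LowKitNeg). Between stages in CD44Neg they were -0.10 to 0.59 for Acer2, -0.0423 to 1.14 for Sphk2, -0.0098 to 0.29 for S1pr1, -0.19 to 0.92 for S1pr2 and -0.14 to 0.31 for Spns2, and in CD44LowKitNeg -0.80 to 0.033 for Asah2. For the interaction they were -0.50 to 0.48 for Acer2, -0.61 to 0.40 for Asah1, -0.63 to 0.89 for Asah2 and -1.22 to 0.10 for Sgpl1. Apart from what the settings themselves remove, the cause was not tested. No paired analysis was possible because the labels do not say which libraries came from the same embryos. The replicate numbers run through all libraries and carry no pairing. Low counts limit what can be seen for S1pr2, Sphk1 and Sphk2, for Acer2 in CD44High, and for Asah2 in CD44High and CD44LowKitPos.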
